A study of Mus musculus with 6 samples.

Results

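The enzymes described here are 7 genes that convert or inactivate androgens, taken by symbol from the 24091 genes of a mouse prostate RNA sequencing count table. They are Srd5a1, Srd5a2 and Srd5a3 of the steroid reductase family and Hsd17b2, Hsd17b4, Hsd17b7 and Hsd17b11 of the hydroxysteroid dehydrogenase family. They were picked by name for their role in androgen metabolism, with earlier results of these data known. The 6 libraries fall into 3 groups of 2. The 12Q group was prostate tumors of mice with a humanised allele coding for 12 glutamines in a polyglutamine tract, and the 48Q group was prostate tumors of mice with the 48-glutamine form of that allele. Both tumor genotypes also carried 1 β-catenin allele with a conditional exon 3, written Ctnnb1(Ex3)L/wt, and the PBCre-4 transgene, whose probasin promoter drives Cre in epithelial cells of the prostate. Removing exon 3 makes β-catenin, the effector of Wnt signalling, resistant to breakdown. Normal prostate from wild-type animals, which carry none of these alleles, formed the WT group. Allele, transgene and tumor therefore cannot be told apart in a comparison with WT, and the labels used here state neither the animals' age nor the lobes taken. Because the labels do not say whether replicates were separate animals, p-values measure the spread between these libraries only, which may be technical. In bulk tissue, fewer cells of a type and less RNA per cell cannot be told apart.

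Prostate cells receive testosterone from the blood, and steroid 5α-reductase turns it into dihydrotestosterone, the stronger androgen. Enzymes of the hydroxysteroid dehydrogenase family oxidise or reduce the steroid at carbon 17, which switches androgens and estrogens between active and weak forms. Several members of both families are named for this chemistry but have another main task, in dolichol synthesis, fatty acid breakdown or cholesterol synthesis.

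Libraries held 26416181 to 28559546 counts. Levels are given as CPM (counts scaled to a common library size by the TMM method), and a floor of 3 counts lay at 0.0855 to 0.156 CPM. The libraries of a group were not alike in cell markers: the summed level of 8 prostate secretory genes was 14600 CPM in 12Q replicate 1 and 608 CPM in 12Q replicate 2. Tgm4 alone made up 14500 and 598 CPM of these sums. Azgp1 (58.8 and 3.74 CPM) and Mme (48.9 and 0.712 CPM) were also lower in 12Q replicate 2, while Pbsn was at 3.33 and 5.14 CPM. The sum of 10 smooth muscle genes was 128 and 127 CPM in 12Q tumors and 1060 and 413 CPM in 48Q tumors, against 2790 and 7320 CPM in WT prostate. Epcam, an epithelial surface protein gene, was at 201 to 1370 CPM in all 6 libraries, so epithelial RNA was present in each.

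None of the 5 enzymes that could be tested passed in any comparison. Of the 7 enzymes, 5 had enough counts to be tested (Srd5a1, Srd5a3, Hsd17b4, Hsd17b7 and Hsd17b11), while Srd5a2 and Hsd17b2 were read mainly in 1 library each. In 12Q tumors against WT, 0 of the 5 were called by edgeR's quasi-likelihood test (adjusted p under 0.05), where 22.4% of all 15050 tested genes were called (11.2% higher and 11.2% lower). In 48Q tumors against WT 0 of 5 were called, where 5.18% of all genes were (3.95% higher and 1.23% lower). Between 12Q and 48Q tumors 0 of 5 were called, where 4.17% of all genes were (1.01% higher and 3.16% lower). The numbers with an unadjusted p under 0.05 were 0, 0 and 1 of 5, against 38.5%, 24.9% and 26.3% of all genes, and DESeq2's Wald test also called 0 of the 5 in each comparison. The median log2 fold change of the 5 was 0.29 for 12Q over WT, -0.03 for 48Q over WT and 0.22 for 12Q over 48Q, and the medians over all tested genes were -0.01, 0.02 and 0.00. In 12Q against WT the upper 95% limit of the fold was 4.73 for Srd5a1 and between 1.45 and 2.30 for the other 4. The libraries did not overlap between groups for 2 of the 5 enzymes in 12Q against WT, 3 of 5 in 48Q against WT and 2 of 5 between 12Q and 48Q, where 60.5%, 64.5% and 66.8% of all genes did not.

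**Figure D1:**
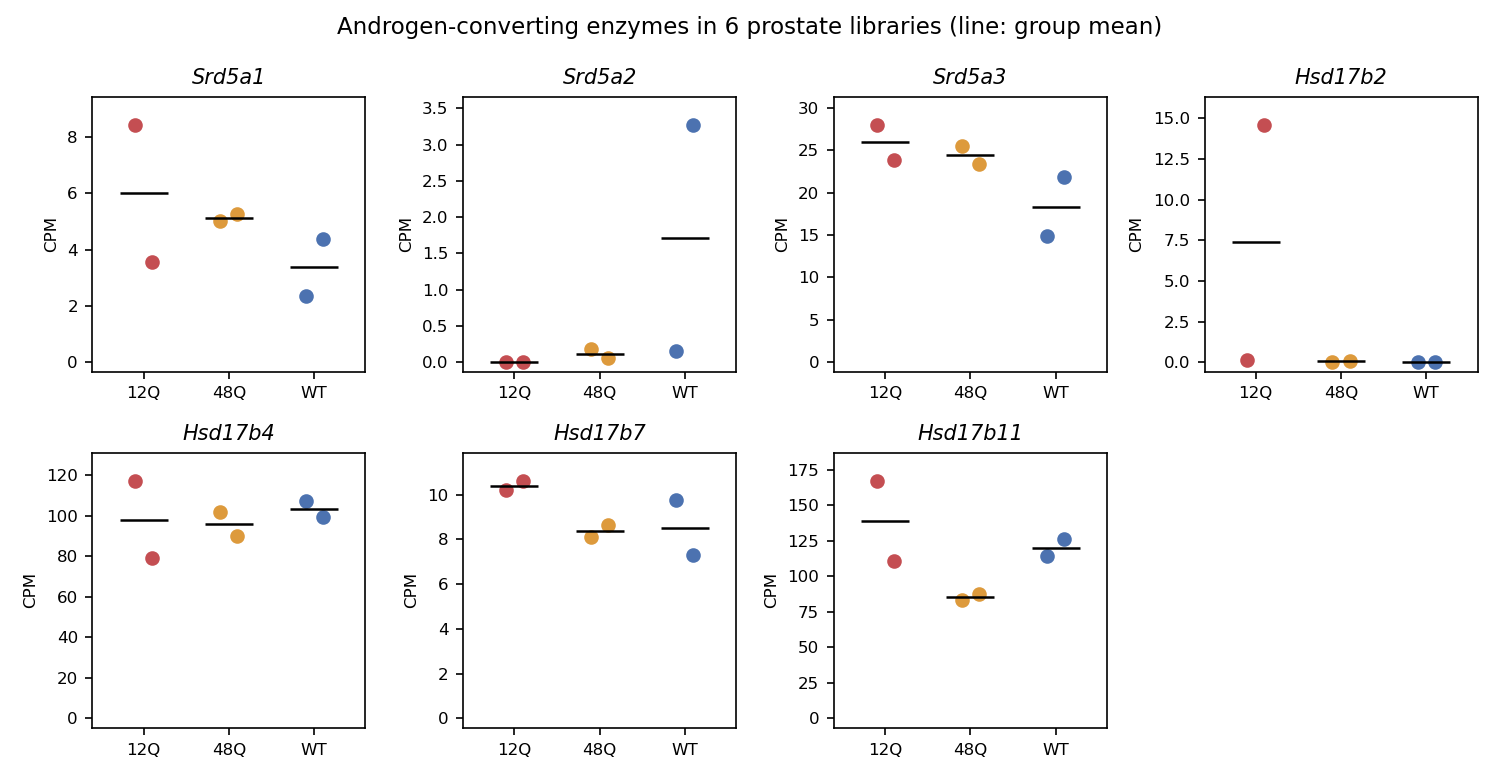
Level of each enzyme gene in CPM (vertical axis, linear, own scale per gene) in the 12Q tumor, 48Q tumor and WT prostate libraries. Each point is 1 library, left replicate 1 and right replicate 2, and the line is the group mean. Hsd17b2 stands at 14.6 CPM in 1 12Q library and Srd5a2 at 3.27 CPM in 1 WT library, while both are near 0 elsewhere.

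The steroid 5α-reductases Srd5a1 and Srd5a2 reduce testosterone to dihydrotestosterone. Srd5a2 is the isoenzyme best known from the human prostate and male genital tract, and Srd5a1 is the form found more widely in skin and liver. Srd5a3 carries the family name, but its established task is the reduction of polyprenol to dolichol, the lipid on which N-linked sugar chains are built. The promoters of these 3 genes are shown because their relative levels are compared next. Each window runs from 250 bases before to 50 after the RefSeq gene start, on the gene's strand in build GRCm38.p6 (the assembly of mm10). They lie at chr13:69611414-69611713 (minus strand), chr17:74047811-74048110 (minus) and chr5:76140023-76140322 (plus). Capitals mark matches, on either strand, to GGGCGG (the GC box), CCAAT (the CCAAT box) or CACGTG (the E-box), and no matches overlapped.
Srd5a1: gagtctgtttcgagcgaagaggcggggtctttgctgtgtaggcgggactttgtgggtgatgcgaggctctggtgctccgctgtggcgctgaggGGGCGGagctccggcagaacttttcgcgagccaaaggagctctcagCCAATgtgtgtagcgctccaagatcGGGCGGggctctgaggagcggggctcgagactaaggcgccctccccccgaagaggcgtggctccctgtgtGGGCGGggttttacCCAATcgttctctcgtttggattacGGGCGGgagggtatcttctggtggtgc
Srd5a2: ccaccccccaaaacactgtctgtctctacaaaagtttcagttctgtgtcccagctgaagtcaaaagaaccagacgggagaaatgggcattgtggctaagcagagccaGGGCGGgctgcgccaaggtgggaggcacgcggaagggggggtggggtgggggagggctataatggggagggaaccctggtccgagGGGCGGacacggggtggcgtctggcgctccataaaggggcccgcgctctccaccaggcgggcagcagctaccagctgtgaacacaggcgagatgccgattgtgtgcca
Srd5a3: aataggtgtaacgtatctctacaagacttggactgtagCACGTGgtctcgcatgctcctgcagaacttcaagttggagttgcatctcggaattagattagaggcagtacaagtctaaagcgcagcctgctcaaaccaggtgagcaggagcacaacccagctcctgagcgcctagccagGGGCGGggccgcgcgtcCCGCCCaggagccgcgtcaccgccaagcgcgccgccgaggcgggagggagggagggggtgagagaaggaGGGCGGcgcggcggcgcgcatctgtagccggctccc
The Srd5a1 window held 4 GC boxes and 2 CCAAT boxes, the Srd5a2 window 2 GC boxes alone, and the Srd5a3 window 3 GC boxes and 1 E-box. A GC box was found in 35.7%, a CCAAT box in 37.4% and an E-box in 7.15% of 32851 RefSeq promoter windows of this length. The windows of all 3 genes lacked AGAACA (the androgen response element half-site, in 19% of all windows), CTTTGA (a TCF/LEF core, 16%) and TATAAA (the TATA box, 13.6%). No match says only that these letters are not in this window.

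Srd5a1 (mm10 chromosome 13, 69573449 to 69611463) was read at 8.43 and 3.56 CPM in 12Q tumors and 5 and 5.27 CPM in 48Q tumors, against 2.35 and 4.38 CPM in WT prostate. The 48Q libraries lay above both WT libraries, whereas 1 of the 12Q libraries lay above WT and the other between the WT libraries. Its log2 fold change was 0.83 ± 0.58 (SE) in 12Q against WT (edgeR adjusted p = 0.339). It was 0.61 ± 0.58 in 48Q against WT (edgeR adjusted p = 0.553) and 0.22 ± 0.58 in 12Q against 48Q (edgeR adjusted p = 0.827). The 95% interval of the 12Q fold ran from 0.669 to 4.73, the widest of the 5 tested enzymes. Srd5a1 shares 476 bases of exon with the annotated gene Gm17108 on the same strand, so part of its counts cannot be assigned with certainty.

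Srd5a2 (chromosome 17, 74017706 to 74047916) was counted 0 and 0 times in 12Q tumors and 6 and 2 times in 48Q tumors, against 3 and 74 times in WT prostate. Scaled to CPM, 12Q stood at 0 in both libraries, 48Q at 0.181 and 0.057 and WT at 0.156 and 3.27, so that WT replicate 2 alone stood clearly above the floor. The 48Q libraries and WT replicate 1 could not be told apart at this depth. The 12Q mean was at least 16.8-fold lower than the WT mean, taking 3 counts per library as the floor, and at least 32.1-fold lower without WT replicate 1. Without WT replicate 2, 12Q and WT were both at or under the floor and no fold is given. Srd5a2 did not pass the low-count filter. In the fit without that filter it was called lower in 12Q than in WT (fitted log2 value -8.61, which is no bound, edgeR adjusted p = 0.0465). For 48Q over WT the fitted value was -3.82 and was not called (edgeR adjusted p = 0.204). It was also called in 12Q against WT without WT replicate 1 (edgeR adjusted p = 0.0342), where WT was represented by the library with 74 counts alone and that library is assumed to vary like the other groups. It was not called without 12Q replicate 1 or 2 (edgeR adjusted p = 0.134 and 0.152) or without 48Q replicate 1 or 2 (edgeR adjusted p = 0.0773 and 0.0764), and without WT replicate 2 it did not pass the filter. Markers of other cells moved in the same libraries: the sum of 10 smooth muscle genes, of which 0 were at 0 counts in any library, was higher in WT replicate 2 than in WT replicate 1 (7320 and 2790 CPM). The sum of 7 adipocyte genes was 3.93 CPM in WT replicate 2 and 0.0521 CPM in WT replicate 1, where 6 of the 7 were at 0 counts. It was 9.45 and 1.91 CPM in 48Q tumors and 0.037 and 0.0309 CPM in 12Q tumors. Sums for other cell types went both ways between WT replicates 1 and 2. Lower in replicate 2 were luminal (15500 and 8490 CPM), basal (1930 and 1140 CPM) and secretory genes (98100 and 67400 CPM). Higher there were fibroblast (671 and 834 CPM) and endothelial genes (78.4 and 114 CPM). The part of any of these cell types in the Srd5a2 values was not tested.

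Srd5a3 (chromosome 5, 76140273 to 76155503) was the most read member of its family in every library. It was at 28 and 23.9 CPM in 12Q tumors and 25.5 and 23.4 CPM in 48Q tumors, against 14.9 and 21.8 CPM in WT prostate. All 4 tumor libraries lay above both WT libraries, a separation seen in 60.5% of all tested genes for 12Q and 64.5% for 48Q. The log2 fold change was 0.50 ± 0.29 in 12Q (edgeR adjusted p = 0.259) and 0.41 ± 0.29 in 48Q (edgeR adjusted p = 0.420), and neither passed. Between 12Q and 48Q tumors it was 0.09 ± 0.29 (edgeR adjusted p = 0.869), with a 95% interval of the fold from 0.652 to 1.73.

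Set against each other per kilobase of gene length, as the count table gives that length, the 3 family members kept the same leading gene. Srd5a3 made up 73.3% and 84.7% of the summed Srd5a level in 12Q tumors and, in 48Q tumors, 79.1% and 77.9%, against 81.2% and 54.6% in WT prostate. Srd5a1 made up 26.7% and 15.3% in 12Q and 18.7% and 21.3% in 48Q, against 15.5% and 13.3% in WT. Srd5a2 made up 0% and 0% in 12Q and 2.19% and 0.746% in 48Q, against 3.34% and 32.1% in WT. By counts alone, 0 of 986 and 0 of 886 Srd5a reads in 12Q allow an Srd5a2 share of up to 0.373% and 0.415% (upper ends of exact Clopper-Pearson 95% intervals). WT replicate 2 had 11.1% of 667 reads (exact Clopper-Pearson 95% interval 8.81% to 13.7%) and WT replicate 1 had 0.898% of 334 (0.186% to 2.6%). These intervals and limits cover counting error only. The difference between the WT libraries exceeded counting error, and it was larger than the difference between WT replicate 1 and the 48Q libraries. The length of Srd5a2 in the count table is 0.849 kb, while its exons in the GENCODE M21 annotation cover 1.605 kb, so the per-length level depends on which exons were counted.

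**Figure D2:**
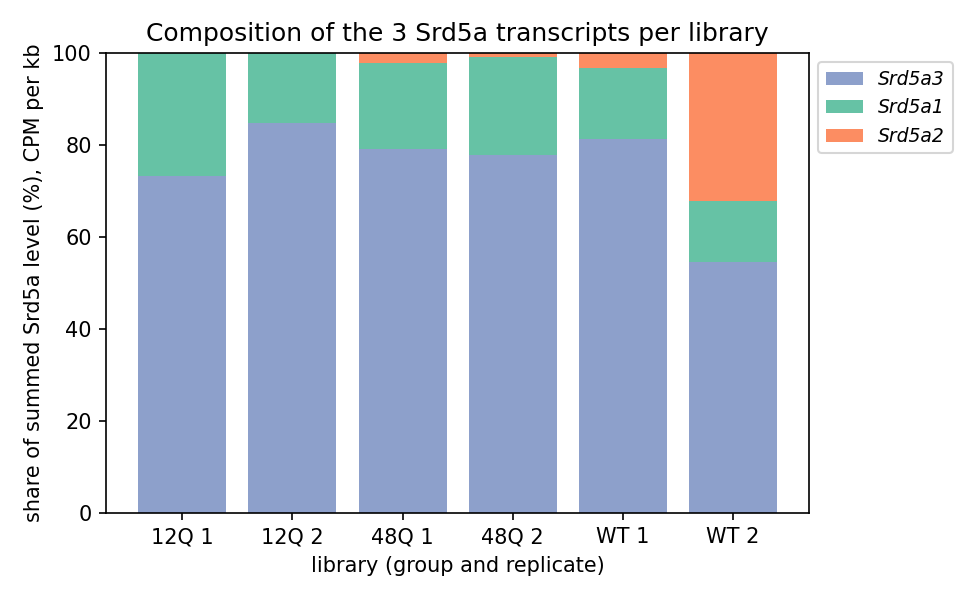
Composition of the summed level of Srd5a3, Srd5a1 and Srd5a2 (CPM per kb of gene length, percent of their sum, stacked bars) in each 12Q, 48Q and WT library. Srd5a3 makes up 54.6% to 84.7%, and Srd5a2 reaches 32.1% in WT replicate 2 and at most 3.34% in the other libraries.

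Among the dehydrogenases, Hsd17b2 oxidises testosterone to androstenedione and estradiol to estrone and so lowers the active hormone in a cell. It (chromosome 8, 117701946 to 117759029) was counted 4 and 472 times in 12Q tumors and 1 and 2 times in 48Q tumors, against 0 and 0 times in WT prostate. In CPM, 12Q replicate 2 stood at 14.6 and 12Q replicate 1 at 0.148, 48Q tumors were at 0.0301 and 0.057, and WT prostate was at 0. Thus 1 library carried nearly all Hsd17b2 reads of the series, and the other 5 were at or close to the floor. The 12Q mean was at least 51-fold higher than WT (3 counts per library as the floor), at least 101-fold without 12Q replicate 1 and at least 1.02-fold without 12Q replicate 2. Against 48Q, which held 3 counts in all, the ratio of CPM was 183 with an exact 95% counting interval of 62.1 to 888. This interval pools the 4 and 472 counts of the 12Q libraries. It covers counting error only and leaves out the difference between those libraries. The gene did not pass the low-count filter, and in the fit without that filter neither comparison called it (edgeR adjusted p = 0.052 for 12Q over WT and 0.113 for 12Q over 48Q). Without 12Q replicate 1 it was called in both comparisons (edgeR adjusted p = 0.0111 and 0.0484), the lone 12Q library being assumed to vary like the other groups. Without a 48Q or WT library it was called in neither (edgeR adjusted p = 0.0788 to 0.181 for 12Q over WT and 0.127 to 0.476 for 12Q over 48Q), and without 12Q replicate 2 it did not pass the filter. With thresholds set around its own counts, Hsd17b2 was the only 1 of 24091 genes with at least 400 counts in 12Q replicate 2 and at most 5 in every other library. At looser limits of at least 70 counts in 1 library and at most 6 in every other, 12Q replicate 2 held 6 genes. Each 48Q library held 3 such genes, and 12Q replicate 1 and each WT library held 1. These looser limits lie close to the Srd5a2 counts (74 in WT replicate 2 and at most 6 elsewhere). The library that held Hsd17b2 also had a lower sum of 8 secretory genes than its replicate (608 and 14600 CPM in 12Q replicates 2 and 1). Tgm4 alone was 598 and 14500 CPM of these sums. The sum of 10 fibroblast genes was 526 CPM in 12Q replicate 2 and 175 CPM in 12Q replicate 1. It was higher than in either of these in 48Q tumors (1170 and 1050 CPM) and in WT prostate (671 and 834 CPM). The part of these differences in the Hsd17b2 value was not tested.

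Hsd17b4 is the peroxisomal multifunctional enzyme that carries out the middle steps of the breakdown of very long and branched fatty acids, and it also oxidises estradiol. Hsd17b4 (chromosome 18, 50128201 to 50196270) was at 117 and 79.0 CPM in 12Q tumors and 102 and 90.2 CPM in 48Q tumors, against 107 and 99.4 CPM in WT prostate. The 3 groups overlapped. The log2 fold change was -0.08 ± 0.25 in 12Q against WT (edgeR adjusted p = 0.849), with a 95% interval of the fold from 0.619 to 1.45. In 48Q against WT it was -0.10 ± 0.25 (edgeR adjusted p = 0.836) and in 12Q against 48Q 0.02 ± 0.25 (edgeR adjusted p = 0.960). Scaled by library totals in place of TMM, the values against WT were 0.42 and 0.59, where the medians of all genes were 0.49 and 0.71. The standard deviation of its log2 CPM over the 6 libraries was 0.20, lower than in all but 5% of tested genes.

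Hsd17b7 reduces a keto group on sterol intermediates of cholesterol synthesis and can also reduce estrone. Hsd17b7 (chromosome 1, 169949537 to 169969205) was at 10.2 and 10.6 CPM in 12Q tumors and 8.10 and 8.64 CPM in 48Q tumors, against 9.75 and 7.29 CPM in WT prostate. Both 12Q libraries lay above the rest, and the 48Q libraries lay between the WT libraries. The log2 fold change was 0.29 ± 0.34 in 12Q against WT (edgeR adjusted p = 0.567) and -0.03 ± 0.34 in 48Q against WT (edgeR adjusted p = 0.970). It was 0.32 ± 0.34 in 12Q against 48Q (edgeR adjusted p = 0.578), with an interval of the fold from 0.704 to 2.21.

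Hsd17b11 is a lipid droplet protein that oxidises the weak androgen androstanediol to androsterone. Hsd17b11 (chromosome 5, 103989765 to 104021796) was at 167 and 111 CPM in 12Q tumors and 83.4 and 87.8 CPM in 48Q tumors, against 114 and 126 CPM in WT prostate. Both 48Q libraries lay below all 4 others, whereas the 12Q libraries spanned the WT range. Hsd17b11 had the smallest p of the 5 tested enzymes in 12Q against 48Q, with a log2 fold change of 0.70 ± 0.26, a 95% interval of the fold from 1.05 to 2.505 and an unadjusted p of 0.0334, but it did not pass after adjustment (edgeR adjusted p = 0.157). It ranked 3211 of 15050 genes by p in that comparison. In 48Q against WT the log2 fold change was -0.49 ± 0.26 (edgeR adjusted p = 0.292), and in 12Q against WT 0.21 ± 0.26 (edgeR adjusted p = 0.580). The value in 48Q against WT was 0.20 with library totals, where the median of all genes was 0.71. The adjusted p in 12Q against 48Q lay between 0.0862 and 0.660 over 12 alternative settings.

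**Figure D3:**
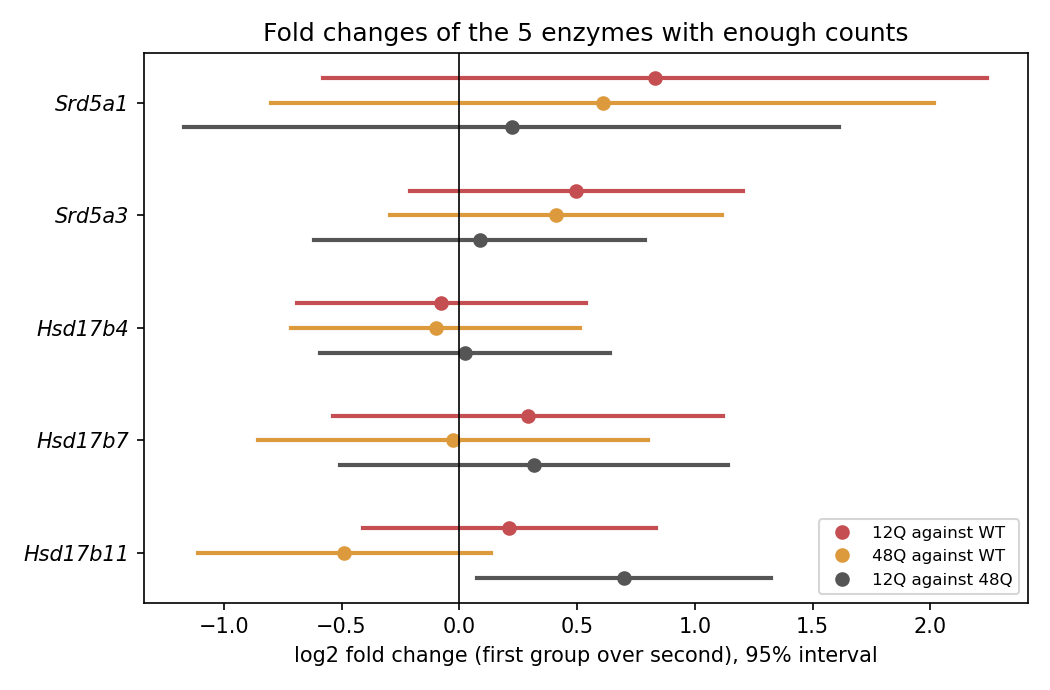
Log2 fold change (points, horizontal axis, first group over second) with 95% interval (lines) of the 5 tested enzymes in 12Q against WT, 48Q against WT and 12Q against 48Q, from top to bottom within each gene. The interval of Hsd17b11 in 12Q against 48Q is the one that does not cross 0, and it is not adjusted over genes.

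Per kilobase of gene length, Hsd17b11 and Hsd17b4 were the most abundant of the 7 enzymes in each group. In 12Q tumors the order of mean CPM per kb was Hsd17b11 (44.4 ± 12.6, SD, n = 2), Hsd17b4 (36.8 ± 9.98), Srd5a3 (7.80 ± 0.889), Hsd17b2 (5.79 ± 8.02), Srd5a1 (2.18 ± 1.25), Hsd17b7 (2.09 ± 0.0518) and Srd5a2 (0). The ranges of Hsd17b11 and Hsd17b4 overlapped there. Within each library Hsd17b11 was higher, at 53.3 against 43.8 CPM per kb in replicate 1 and 35.5 against 29.7 in replicate 2. Srd5a1 and Hsd17b7 changed order between the 12Q libraries. The place of Hsd17b2, whose libraries spanned those of Srd5a3 and Srd5a1, rests on 12Q replicate 2. In 48Q tumors the order was Hsd17b4 (36.1 ± 3.20), Hsd17b11 (27.3 ± 1.01), Srd5a3 (7.34 ± 0.462), Srd5a1 (1.87 ± 0.0715), Hsd17b7 (1.67 ± 0.0766), Srd5a2 (0.140 ± 0.103) and Hsd17b2 (0.0342 ± 0.0149). There Srd5a1 and Hsd17b7 lay close but did not overlap, and Srd5a2 and Hsd17b2 rested on at most 6 counts a library. In WT prostate the order was Hsd17b4 (38.8 ± 2.01), Hsd17b11 (38.3 ± 2.54), Srd5a3 (5.52 ± 1.47), Srd5a2 (2.02 ± 2.59), Hsd17b7 (1.70 ± 0.348), Srd5a1 (1.22 ± 0.522) and Hsd17b2 (0). In WT, Hsd17b4 overlapped with Hsd17b11, and Srd5a2, Hsd17b7 and Srd5a1 overlapped. By this scale Hsd17b4 and Hsd17b11 stood above 86.5% to 90.6% of tested genes in each group, and Srd5a1 and Hsd17b7 above 26.3% to 33.1%.

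The genes with the most similar profile over the 6 libraries, by Euclidean distance of centred log2 CPM, were found for each tested enzyme. They were Pxmp2, Smpd1 and Trdmt1 for Srd5a1 (distances 0.319, 0.342 and 0.353), and Jkamp, Wdr35 and Ap1m1 for Srd5a3 (0.100, 0.149 and 0.156). For Hsd17b4 they were D3Ertd254e, Laptm4a and Ppp3cb (0.100, 0.138 and 0.156). For Hsd17b7 they were Nup54, Psmg3 and Ppie (0.0678, 0.0902 and 0.107), and for Hsd17b11 Rnf141, Fem1a and Znhit3 (0.124, 0.132 and 0.140). The median distance to all genes was 1.37 to 1.91, and with 15050 genes and 6 libraries close profiles are common, so these distances are a description only.

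The genes that supply steroid to these enzymes were considered next. For comparison, edgeR called 11.2% of all tested genes higher and 11.2% lower in 12Q against WT. The shares were 3.95% and 1.23% in 48Q against WT, and 1.01% and 3.16% in 12Q against 48Q. Of 18 genes of upstream steroid synthesis, 9 were tested, and in 12Q against WT 1 was higher and 1 lower (median log2 fold change 0.69). In 48Q against WT 1 was higher and 0 lower (0.16), and in 12Q against 48Q 1 was higher and 0 lower (0.33). Tspo, a mitochondrial outer membrane protein that binds cholesterol, was the gene that rose in each, at 106 and 114 CPM in 12Q and 37.4 and 37.7 CPM in 48Q, against 13.5 and 16.3 CPM in WT (edgeR adjusted p = 0.0027 in 12Q and 0.03 in 48Q against WT, 0.0248 in 12Q against 48Q). Most macrophage markers were higher in the same tumors: 6 of 9 were called higher in each tumor group than in WT, and 1 was called lower in 12Q. Their sum was 298 and 463 CPM in 12Q and 527 and 541 CPM in 48Q, against 128 and 102 CPM in WT. Cd163 and Mrc1 went the other way in 12Q. Cd163 was at 0.037 and 0.0309 CPM in 12Q, against 2.4 and 4.64 CPM in WT, and Mrc1 at 9.91 and 15.5 CPM, against 16.1 and 20 CPM. The part of macrophages in the Tspo values was not tested. Cyb5a, a cytochrome that promotes the androgen-forming reaction of Cyp17a1, fell to 60.2 and 43.8 CPM in 12Q, against 144 and 126 CPM in WT (edgeR adjusted p = 0.0157). In 48Q Cyb5a was also below WT, at 74.2 and 61 CPM, but was not called. Of 20 further 17β- and 3α-hydroxysteroid dehydrogenases, 11 were tested and 1 was higher in each tumor group than in WT (medians 0.125 for 12Q and 0.27 for 48Q). Between 12Q and 48Q edgeR called 0 of these 11 (4 at an unadjusted p under 0.05, 1 by DESeq2, median -0.41). Hsd17b12, a fatty acid elongation enzyme, was at 222 and 136 CPM in 12Q and 87.5 and 95.3 CPM in 48Q (edgeR adjusted p = 0.146), and Hsd17b10, a mitochondrial enzyme, at 110 and 46 CPM in 12Q and 41.2 and 45.2 CPM in 48Q (edgeR adjusted p = 0.253). The gene higher in both tumor groups was Hsd17b3, the testis enzyme of the last step of testosterone synthesis, which acts in the opposite direction to Hsd17b2. Hsd17b3 was counted 112 and 42 times in 12Q and 193 and 127 times in 48Q, against 0 and 0 times in WT. It was at least 18.8-fold higher in 12Q than in WT (edgeR adjusted p = 0.0143) and at least 32.6-fold higher in 48Q (edgeR adjusted p = 0.0307). Leaving out 12Q replicate 1 lowered the 12Q bound to 8.99-fold, leaving out 12Q replicate 2 raised it to 28.7-fold, and its call held without any 1 library. The 48Q call was lost without any 1 of the 48Q or WT libraries (edgeR adjusted p = 0.0601 to 0.12). Of other markers of steroid-producing testis or adrenal cells, Hsd3b1 and Hsd3b6 were at 0 counts in all 6 libraries and Insl3 was at most 0.0884 CPM. Cyp17a1, which makes androgen precursors, was read where Hsd17b3 was, at 0.74 and 0.278 CPM in 12Q and 0.361 and 1.25 CPM in 48Q, against 0 and 0 CPM in WT. Star, the mitochondrial cholesterol carrier, was at 0.592 to 1.99 CPM over the 6 libraries. The 11 listed markers other than Hsd17b3, of which 5 to 9 were at 0 counts per library, summed to 1.41 and 2.85 CPM in 12Q and 2.47 and 3.31 CPM in 48Q, against 1.67 and 2.08 CPM in WT. Star alone made up 0.592 and 1.79 CPM of these sums in 12Q, 1.57 and 1.8 CPM in 48Q and 1.56 and 1.99 CPM in WT. The WT sums were therefore nearly all Star.

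Among genes that remove or conjugate steroids, 4 fell and 1 rose in 12Q tumors against WT. Over all tested genes, 11.2% were called lower and 11.2% higher in that comparison. In 48Q against WT 1.23% were called lower and 3.95% higher, and in 12Q against 48Q 3.16% lower and 1.01% higher. Of 20 listed genes 14 were tested, and their median log2 fold change in 12Q against WT was 0.03. In 48Q against WT edgeR called 0 of 14 (7 at an unadjusted p under 0.05, 5 by DESeq2, median 0.86), and in 12Q against 48Q 0 were higher and 2 lower (-2.73). Cyp7b1, a hydroxylase that removes androstanediol and oxysterols, was at 0.148 and 0.0309 CPM in 12Q and 9.15 and 4.28 CPM in 48Q, against 25.1 and 18.1 CPM in WT. Cyp7b1 fell in 12Q relative to WT, with a log2 fold change of -7.90 (edgeR adjusted p = 0.00416), and relative to 48Q, with one of -6.22 (edgeR adjusted p = 0.0229). Without 12Q replicate 1 the remaining library had 1 count and the CPM ratio to WT was 0.00145 (95% counting interval 3.67e-05 to 0.0081). Sult1e1, the estrogen sulfotransferase, had 0 and 0 counts in 12Q and 180 and 59 counts in 48Q, against 349 and 225 counts in WT. It was at least 138-fold lower in 12Q than in WT (edgeR adjusted p = 0.0076) and at least 34.8-fold lower than in 48Q (edgeR adjusted p = 0.0332). Leaving out 48Q replicate 1 gave 16.5-fold and leaving out 48Q replicate 2 gave 53.2-fold for the second bound. Many basal and stromal markers, but not all, were lower in the same 12Q libraries. Of 10 basal markers 6 were lower and 1 higher in 12Q than in WT and 5 lower than in 48Q, and of 10 fibroblast markers 5 were lower than in each. Of 10 smooth muscle markers 10 were lower in 12Q than in WT and 5 lower than in 48Q. Krt5, a basal keratin gene, was at 0.074 and 0.433 CPM in 12Q and 65.2 and 79.5 CPM in 48Q, against 30.2 and 72.1 CPM in WT. The fibroblast gene Pdgfra was at 0.851 and 1.11 CPM in 12Q and 82 and 63.6 CPM in 48Q, against 23.4 and 42.2 CPM in WT. In 12Q against WT, 3 of 10 basal and 1 of 10 fibroblast markers had a positive log2 fold change. The basal marker Dkk3 was at 67.4 and 37.7 CPM in 12Q, against 2.76 and 12.1 CPM in WT. The fibroblast gene Col1a1 was at 73.8 and 195 CPM in 12Q, against 12.8 and 74.1 CPM in WT. The part of these cells in the Cyp7b1 and Sult1e1 values was not tested. Cyp2d22 fell to 0.851 and 0.186 CPM in 12Q, against 7.67 and 8.8 CPM in WT (edgeR adjusted p = 0.024), a call that was lost when 12Q replicate 2 or either WT library was left out (edgeR adjusted p = 0.0604 to 0.066). In 48Q Cyp2d22 was at 4.79 and 2.02 CPM and was not called against WT. H6pd, which supplies NADPH to steroid reduction in the endoplasmic reticulum, was at 77.8 and 80.5 CPM in 48Q and 132 and 171 CPM in WT (edgeR adjusted p = 0.0745). Papss1, which makes the sulfate donor, was at 124 and 131 CPM in 48Q and 111 and 85 CPM in WT (edgeR adjusted p = 0.347). Sult2b1, a sulfotransferase of hydroxysteroids and cholesterol, rose to 2 and 11.3 CPM in 12Q, against 0 and 0.0884 CPM in WT (edgeR adjusted p = 0.0173), a ratio of 148 (95% counting interval 40.7 to 1230). The counting intervals of Cyp7b1 and Sult2b1 cover counting error only, not differences between libraries. In 48Q Sult2b1 was at 0.993 and 1.14 CPM, above both WT libraries, but was not called against WT. The Sult2b1 ratio was 237 without 12Q replicate 1, 41.7 without 12Q replicate 2 and 80 without WT replicate 1, and its call was lost without either WT library (edgeR adjusted p = 0.0687 and 0.0527).

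**Figure D4:**
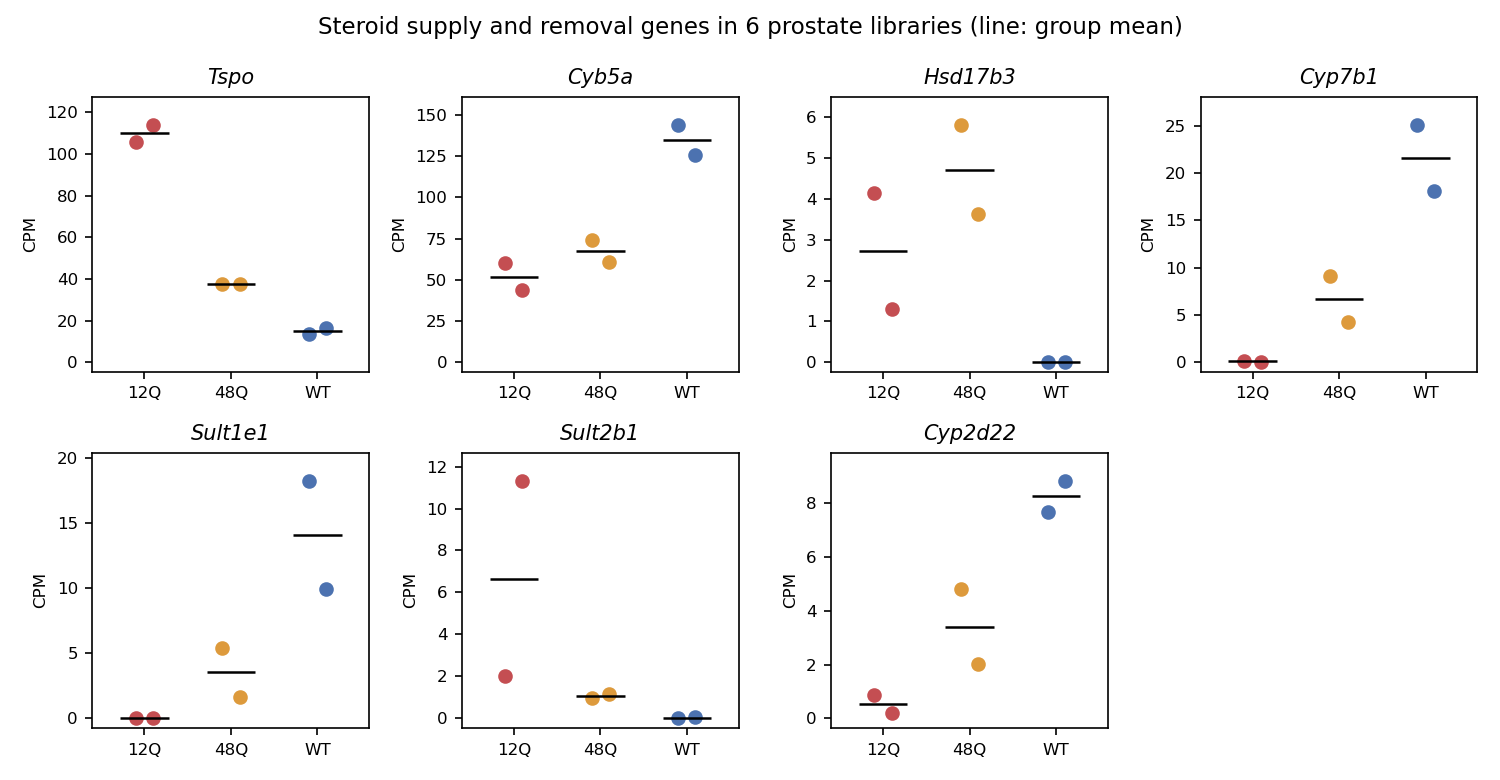
Level in CPM (vertical axis, linear, own scale per gene) of 7 genes of steroid supply (Tspo, Cyb5a, Hsd17b3) and steroid removal (Cyp7b1, Sult1e1, Sult2b1, Cyp2d22) in the 12Q, 48Q and WT libraries. Points are libraries and lines are group means. Tspo is highest in both 12Q libraries, and Sult1e1 is at 0 in both.

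The other tasks of Srd5a3, Hsd17b4, Hsd17b7 and Hsd17b11 place them beside 4 further groups of genes. Over all tested genes, 11.2% were called higher and 11.2% lower in 12Q against WT. The shares were 3.95% and 1.23% in 48Q against WT, and 1.01% and 3.16% in 12Q against 48Q. Srd5a3 was at a positive log2 fold change in both tumor groups. Of 24 tested genes of dolichol and N-glycan precursor synthesis 0 were higher and 2 lower in 12Q against WT (median -0.54). In 48Q against WT 0 were higher and 2 lower (-0.69), and in 12Q against 48Q edgeR called 0 (2 at an unadjusted p under 0.05, 2 by DESeq2, 0.25). Gmppb, which makes the GDP-mannose donor, was at 28.7 and 21.8 CPM in 12Q and 21 and 21.8 CPM in 48Q, against 105 and 80 CPM in WT (edgeR adjusted p = 0.00812 and 0.0182). The second lower gene was Pmm2 in 12Q (edgeR adjusted p = 0.0241, but 0.0761 and 0.0618 without WT replicate 1 or 2) and Alg2 in 48Q, with a log2 fold change of -1.03 (edgeR adjusted p = 0.0487). The Alg2 call was lost without the low-count filter (edgeR adjusted p = 0.0531) and with library totals (log2 fold change -0.33, edgeR adjusted p = 0.222). Pmm2 was at 134 and 58.7 CPM in 12Q and 108 and 103 CPM in 48Q, against 376 and 331 CPM in WT. Nus1, a dolichol synthesis gene, was at 114 and 126 CPM in 12Q and 116 and 124 CPM in 48Q (edgeR adjusted p = 0.997). Beside Hsd17b4, of 23 genes of peroxisomal β-oxidation 1 was higher and 2 lower in 12Q against WT (median -0.16), and 0 were higher and 2 lower in 48Q against WT (-0.29). Between 12Q and 48Q edgeR called 0 of the 23 (2 at an unadjusted p under 0.05, 0 by DESeq2, median 0.07). Scp2, a sterol carrier and thiolase gene, was at 450 and 216 CPM in 12Q and 645 and 542 CPM in 48Q (edgeR adjusted p = 0.245), and Abcd3, a peroxisomal membrane transporter gene, at 303 and 260 CPM in 12Q and 249 and 264 CPM in 48Q (edgeR adjusted p = 0.743). Phyh, which removes the branch carbon of phytanic acid, fell to 54.4 and 33.9 CPM in 12Q and 78.3 and 62.7 CPM in 48Q, against 319 and 317 CPM in WT (edgeR adjusted p = 0.00459 and 0.0225). Pecr fell in both as well (edgeR adjusted p = 0.0142 and 0.0423). Acox2 had 20 and 89 counts in 12Q and 28 and 29 counts in 48Q, against 0 and 0 in WT. It was at least 12.1-fold higher in 12Q than in WT (edgeR adjusted p = 0.0203) and was not called in 48Q against WT. Without 12Q replicate 1 the Acox2 bound was 19.1-fold, without 12Q replicate 2 it was 5.12-fold, and the call was lost without WT replicate 1 or 2 (edgeR adjusted p = 0.0561 and 0.0584).

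Beside Hsd17b7, of 21 genes of cholesterol synthesis 2 were higher and 0 lower in 12Q against WT (median 0.24). Of all tested genes, 11.2% were called higher and 11.2% lower in that comparison. The shares were 3.95% and 1.23% in 48Q against WT, and 1.01% and 3.16% in 12Q against 48Q. In 48Q against WT edgeR called 0 of the 21 (6 at an unadjusted p under 0.05, 4 by DESeq2, median -0.54). In 12Q against 48Q edgeR also called 0 (9 at an unadjusted p under 0.05, 5 by DESeq2). Of the 21, 20 had a positive log2 fold change there (median 0.915, against 0.00 over all tested genes). All 5 tested enzymes, Hsd17b7 among them, were also positive in that comparison. Hmgcs1, an early enzyme of the pathway, was at 156 and 193 CPM in 12Q and 69.2 and 88.3 CPM in 48Q, against 156 and 62.8 CPM in WT (edgeR adjusted p = 0.531 for 48Q over WT and 0.163 for 12Q over 48Q). Nsdhl, which acts just before Hsd17b7 in the same pathway, rose to 54.3 and 32.8 CPM in 12Q, against 17 and 21.1 CPM in WT (edgeR adjusted p = 0.0436). Srebf2, the transcription factor of the pathway, rose to 217 and 324 CPM in 12Q, against 127 and 118 CPM in WT (edgeR adjusted p = 0.0299). In 48Q Srebf2 was at 141 and 145 CPM (edgeR adjusted p = 0.641 for 48Q over WT and 0.0996 for 12Q over 48Q). The Nsdhl call held only without 12Q replicate 2, and was lost without any other library (edgeR adjusted p = 0.0833 to 0.133) and with only the compared groups (edgeR adjusted p = 0.102). The Srebf2 call held only without 12Q replicate 1, and was lost without any other (edgeR adjusted p = 0.0653 to 0.0925) and with only the compared groups (edgeR adjusted p = 0.0902). Beside Hsd17b11, of 26 tested lipid droplet genes 5 were higher and 3 lower in 12Q against WT (median 0.31), 2 higher and 0 lower in 48Q against WT (-0.06), and 1 higher and 0 lower in 12Q against 48Q (0.41). Rdh10, a retinol dehydrogenase on droplets, was at 193 and 249 CPM in 12Q and 67.7 and 77 CPM in 48Q, against 20.1 and 17.8 CPM in WT (edgeR adjusted p = 0.0027 in 12Q and 0.018 in 48Q against WT, 0.0277 in 12Q against 48Q). Dgat2, an enzyme of triglyceride synthesis, rose in 12Q and 48Q against WT (edgeR adjusted p = 0.00558 and 0.0427). Plin2, a droplet coat protein gene, rose to 24.3 and 55.5 CPM in 12Q, against 5.74 and 6.67 CPM in WT (edgeR adjusted p = 0.0119), while Plin4, an adipocyte and muscle droplet protein gene, fell to 0 and 0.155 CPM in 12Q, against 4.64 and 27.1 CPM in WT (edgeR adjusted p = 0.0236). In 48Q Plin2 was at 20.6 and 17.5 CPM and Plin4 at 5.93 and 1.23 CPM, and neither was called against WT. The Plin2 call was lost without WT replicate 1 (edgeR adjusted p = 0.0576), and the Plin4 call when either 12Q library or WT replicate 2 was left out (edgeR adjusted p = 0.0682 to 0.0806). All calls of 48Q against WT in these lists were lost without WT replicate 1, where edgeR called 0 of all genes, and without either 48Q library. Of the 4 calls of 12Q against 48Q in these lists, 0 held without 12Q replicate 2 or without 48Q replicate 1.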

How the data were processed

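Per the labels' protocols, RNA-Bee was used for RNA extraction and the Kapa RNA Hyperprep kit for library preparation. The authors deposited raw counts, in whole numbers for each gene. Per the submitters' processing notes, mm10, TopHat2 2.0.14 and HTSeq 0.6.0 were used. Annotation and strand setting: not given in the sources used here, so counts of genes whose exons overlap another gene are uncertain (among named genes Srd5a1, Srd5a2, Tspo, Sult2b1, Gmppb, Pmm2, Pecr, Plin4, Hmgcs1, Pxmp2, Jkamp, Psmg3, Ppie, Rnf141 and Znhit3, from GENCODE M21).

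Samples were grouped by title, and 0 value columns matched no sample. Genes were kept by filterByExpr (minimum count 10, minimum total 15), scaled by TMM and tested with edgeR 4.0.16 (R 4.3.3) by the quasi-likelihood F test in 1 fit of 3 groups (3 residual degrees of freedom), adjusted over 15050 genes by Benjamini and Hochberg's method (threshold 0.05). The fit was tested on simulated data. The standard error is the log2 fold change over the root of F. log2 CPM used a prior count of 2. Alternatives used DESeq2 1.42.0, other scalings, no filter, other sample sets and a replicate block.

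Members and lists were chosen with earlier results of these data known. Of each list, up to 4 called genes with the smallest adjusted p were named per comparison, or the 2 most abundant where none passed. The 3 nearest profiles leave out predicted and clone names. Of 154 listed context genes, 152 were found in the table, including older symbols. Promoters are RefSeq's, found for 5 of 7 enzymes. The humanised gene and 2 further genes, left out of their lists, are not reported here.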

Additional observations from a re-analysis of the deposited data

Results flagged for a closer look

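None of the 5 tested enzymes passed between 12Q and 48Q tumors. Among genes of the surrounding pathways, 4 were set apart because their change against WT differed between 12Q and 48Q tumors, tested as 12Q against 48Q. Both changes share the WT libraries. The log2 difference was -6.22 for Cyp7b1 and -9.65 for Sult1e1, the second a fitted value with 12Q at 0 counts and not a bound. It was 1.61 for Rdh10 and 1.55 for Tspo. In each of the 4, both 12Q libraries lay on 1 side of both 48Q libraries, as 66.8% of all tested genes did. Of 10 basal, 10 fibroblast and 10 smooth muscle markers, 5, 5 and 5 were also lower in 12Q than in 48Q, where 3.16% of all tested genes were. The part of these cell types in these Cyp7b1 and Sult1e1 values was not tested.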

How the results depend on the processing

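The 5 tested enzymes stayed uncalled in all alternatives. The number of the 7 called was 1 in 12Q against WT without the low-count filter (Srd5a2), and leaving out 1 library gave 0 to 1 for 12Q over WT and 0 to 1 for 12Q over 48Q. Calls among all genes, 3370 and 780 against WT for 12Q and 48Q and 627 for 12Q over 48Q, ranged from 1861 to 2934, 0 to 1215 and 47 to 866 when 1 library was left out. With only the compared groups 1887 genes were called in 12Q against WT, with library totals 2001 in 48Q against WT, and with DESeq2 2540 for 48Q over WT and 2481 for 12Q over 48Q. Library totals raised the share of higher calls to 76.0% in 12Q against WT (50.1% with TMM) and 95.9% in 48Q against WT (76.3%), and gave 14.1% in 12Q against 48Q (24.2%). The cause of these shifts was not tested. Context list genes called, 23, 8 and 4, were 39 and 16 against WT with library totals and 37, 31 and 25 with DESeq2. In 12Q against 48Q they were 7 without the filter and 8 with only the compared groups. Without 1 library they ranged from 15 (WT replicate 1 left out) to 21 for 12Q over WT, 0 to 13 for 48Q over WT and 0 to 8 for 12Q over 48Q.

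Directions of enzymes that were not called turned in some settings. With library totals Hsd17b4 was at 0.42, 0.59 and -0.17 for 12Q over WT, 48Q over WT and 12Q over 48Q, Hsd17b7, Hsd17b11 and Hmgcs1 at 0.68, 0.20 and 0.26 in 48Q against WT, and Srd5a3, Nus1 and Abcd3 at -0.10, -0.18 and -0.06 in 12Q against 48Q. Leaving out 1 library, the 12Q against WT values ranged from -0.34 to 0.18 for Hsd17b4 and -0.06 to 0.48 for Hsd17b11, and 48Q against WT from -0.23 to 0.19 for Hsd17b7 and -1 to 0.32 for Hmgcs1. In 12Q against 48Q they ranged from -0.50 to 0.73 for Srd5a1, -0.01 to 0.21 for Srd5a3, -0.25 to 0.29 for Hsd17b4, -0.82 to 0.35 for Pmm2 and -0.06 to 0.10 for Nus1. Without length scaling the mean shares of Srd5a1, Srd5a2 and Srd5a3 in 48Q were 17.3%, 0.394% and 82.3%. Shared replicate numbers did not pair libraries (correlations of deviations 0.0252, 0.134 and -0.103), and the fit with the replicate block called 3066, 854 and 605 genes and 0, 0 and 0 of the 5 tested enzymes. Among named genes the block lost the calls of Nsdhl in 12Q against WT (edgeR adjusted p = 0.0614) and Alg2 in 48Q against WT (edgeR adjusted p = 0.0562). Library totals were alike, and the values of Srd5a2 and Hsd17b2 are limited by replicates that differ (3 and 74 counts in WT, 4 and 472 in 12Q).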
